A study of Homo sapiens with 8 samples.

Results

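The genes described are 31 genes of sterol and fatty acid synthesis: the transcription factor genes SREBF1 and SREBF2, their regulators SCAP and INSIG1, and 27 targets that encode lipid synthesis enzymes or a sterol carrier. They were taken by name among the 43317 gene names on the array, where they have 38 of 58201 probes. The set was chosen with the ratios of these arrays known, in which SREBF1 had the lowest named ratio after miR-30c-2-3p transfection, so its ratios are given as a description and carry no test. All 31 genes were well above background in both dye channels on all 8 arrays.

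The data were 8 Agilent two-colour arrays. Each compared cells transfected with 1 mature miRNA by Lipofectamine RNAiMAX (Cy5 channel) with mock cells of the same line, which the labels mark as not transfected (Cy3 channel). HCT116 cells, a human colorectal cancer line, received 1 strand of miR-143 (miR-143-3p or miR-143-5p) or of miR-139 (miR-139-3p or miR-139-5p), and PANC-1 cells, derived from a pancreatic carcinoma, received miR-30a-3p, miR-30a-5p, miR-30c-2-3p or miR-30c-5p. There was 1 array per miRNA, so no ratio below has an error across cultures, and no dyes were swapped. A control transfection was not analysed here, so the transfection itself and the miRNA cannot be told apart.

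The sterol regulatory element-binding proteins, encoded by SREBF1 and SREBF2, are made as precursors anchored in the membrane of the endoplasmic reticulum. SCAP, a sterol-sensing escort protein, carries them to the Golgi apparatus when sterols are low, where they are cut and released to the nucleus, and INSIG1 holds SCAP back when sterols are plentiful. The SREBF1 products act mainly on fatty acid synthesis and the SREBF2 product mainly on cholesterol synthesis. Many tumour lines depend on this pathway to build membranes. Mature miRNAs lower mRNAs mainly through pairing of the seed, bases 2 to 8 of the miRNA, with sites that are most often in the 3′ untranslated region.

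The mature sequences of the transfected miRNAs, from RefSeq, are shown so that the seeds can be compared, with the seed in capitals.
miR-139-5p: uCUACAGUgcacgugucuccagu
miR-139-3p: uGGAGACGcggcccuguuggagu
miR-143-5p: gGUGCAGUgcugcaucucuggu
miR-143-3p: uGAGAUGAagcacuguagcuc
miR-30c-5p: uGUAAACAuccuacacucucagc
miR-30c-2-3p: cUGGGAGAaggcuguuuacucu
miR-30a-5p: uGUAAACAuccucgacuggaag
miR-30a-3p: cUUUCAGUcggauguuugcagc
The miR-30a-5p and miR-30c-5p strands shared 1 seed, which differed between all other pairs. On GRCh38.p14 the miR-30c-2-3p strand lies in MIR30C2 on chromosome 6, from 71376964 to 71376985 on the minus strand. Heptamers complementary to bases 2 to 8, or to bases 2 to 7 followed by A, were searched in the 38 probes of the 31 genes. No such heptamer of miR-30c-2-3p was found in them, while 0.956% of all 43317 genes held one in the probe used. The single match was that of miR-143-5p in the LSS probe, CTGCACAtcttaaaa, with the heptamer in capitals. A probe covers only a short stretch of its transcript, so nothing follows from a missing match about sites elsewhere in the mRNA.

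One slide and 1 scan held all 8 arrays, with 44.1% to 45.3% of spots well above background in Cy3 and 45.8% to 51.4% in Cy5, and no saturated spot. Slide column and cell line coincided and cannot be told apart. Of the markers fixed for the lines, CDH1, EPCAM and CDX2 were higher in mock HCT116 and VIM, ZEB1, CDH2 and CAV1 in mock PANC-1 (limma). AXL was at an adjusted p = 0.0505 (limma), KRT20 at 0.21 (limma), and VIL1 was not well above background in mock cells. On 7 arrays, genes whose probe held a seed heptamer of the transfected miRNA had a lower median log2 ratio than the other genes, with differences of -0.09 to -0.02. On the array under the miR-143-3p label they had a higher median, 0.03 against 0.01, so that array is named by its label throughout.

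Members at least 2-fold away from mock, a log2 ratio of 1 or more from 0, were counted on each array beside the share of all detected genes past the same rule. With miR-30c-2-3p, 5 of the 31 genes were lower (background 4.14%) and 0 higher (background 1.71%). With miR-139-3p, 2 were lower (background 2.82%) and 0 higher (background 2.11%). With miR-143-5p, 1 was lower (background 1.0%) and 0 higher (background 0.356%). With miR-30c-5p, 1 was lower (background 0.445%) and 1 higher (background 0.747%). With miR-139-5p, 0 were lower (background 0.201%) and 1 higher (background 0.0587%). With miR-30a-3p, 1 was lower (background 1.10%) and 0 higher (background 0.372%). No member passed the rule after miR-30a-5p (background 0.263% lower and 0.306% higher) or on the array under the miR-143-3p label (background 0.925% lower and 0.517% higher). These 12 cases came from 8 genes: SREBF1, INSIG1, HMGCS1, SQLE, LSS, FASN, SCD and FADS2. The other 23 genes stayed between -0.85 and 0.83 on every array.

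**Figure D1:**
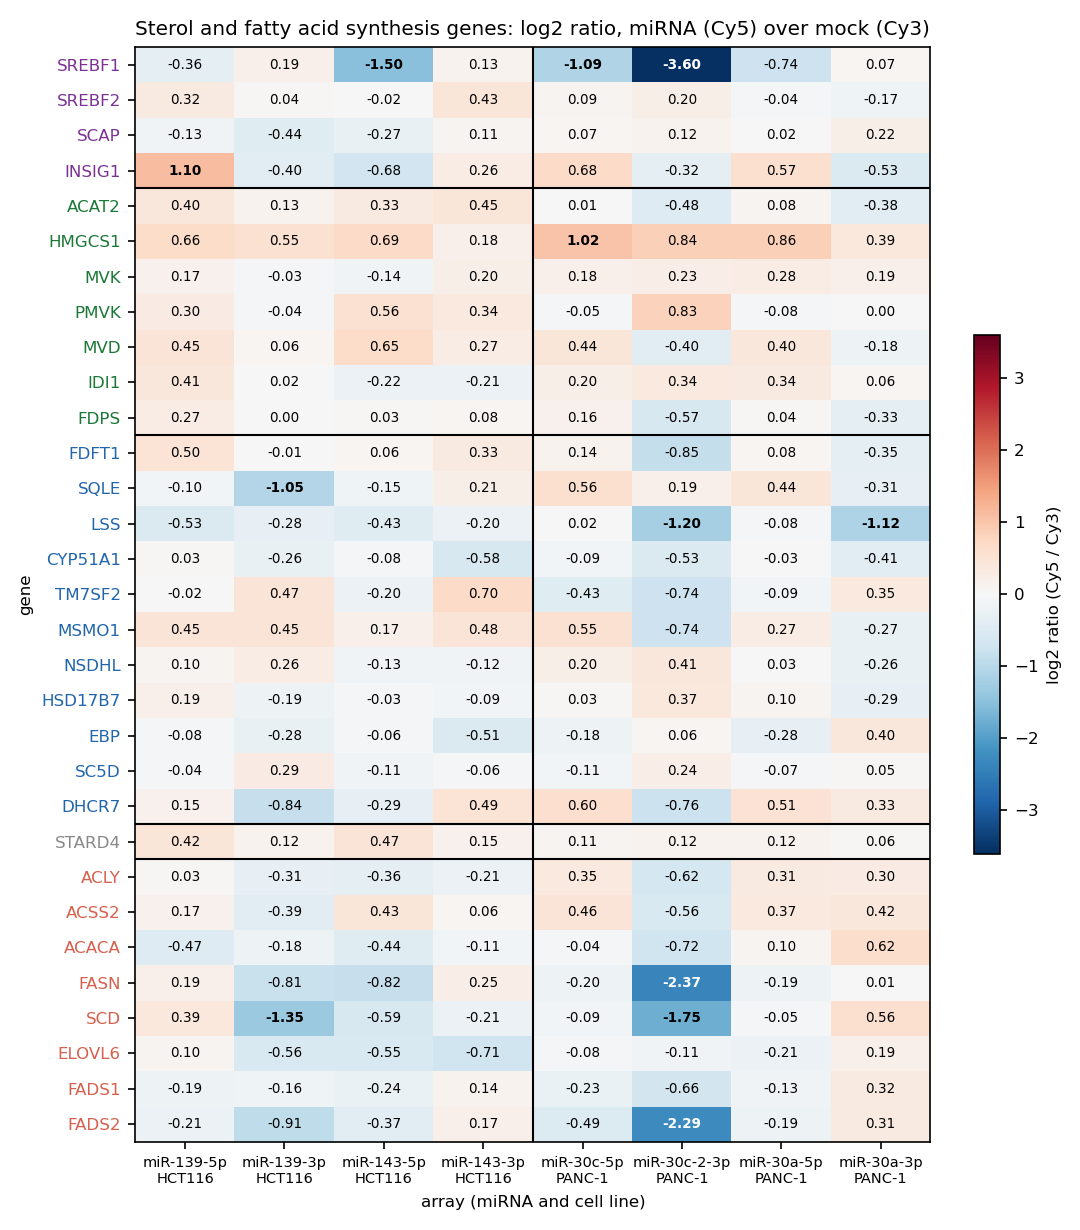
Log2 ratio of Cy5 (miRNA) over Cy3 (mock) for each of the 31 genes (rows, grouped by step of the pathway) on each of the 8 arrays (columns), with the value printed in each cell and values of 1 or more from 0 in bold. SREBF1, FASN, FADS2 and SCD after miR-30c-2-3p, at -3.60, -2.37, -2.29 and -1.75, are the 4 lowest values.

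SREBF1, the factor of the fatty acid branch, had a log2 ratio of -3.60 after miR-30c-2-3p, a 12.1-fold lower signal than in mock and the lowest of the 18398 genes well above background in both channels of that array. It was at -1.50 after miR-143-5p and -1.09 after miR-30c-5p, both past the 2-fold rule, and at -0.74 after miR-30a-5p and -0.36 after miR-139-5p. It was at 0.19 after miR-139-3p, 0.13 on the array under the miR-143-3p label and 0.07 after miR-30a-3p. The strands that share a seed were thus both below 0 for this gene. Against the mean of the 4 mock channels of the line, the value after miR-30c-5p was -0.80, inside the rule, and that after miR-30a-5p was -1.16, past it.

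On the normalised log2 intensity scale, the SREBF1 mock level was 12.07 and 12.03 on the miR-139 arrays, 11.14 on both miR-143 arrays, 12.07 and 12.19 on the miR-30c arrays, and 11.36 and 11.48 on the miR-30a arrays. The level in transfected cells was 8.59 after miR-30c-2-3p and 9.64 after miR-143-5p, and between 10.62 and 12.22 on the other 6 arrays. The mock levels of the 4 PANC-1 arrays were 11.36 to 12.19. This range is given as a description, because the low SREBF1 ratio on the miR-30c-2-3p array was known when the set was chosen. Against the mean of those 4 mock channels, the log2 ratio was -3.18. In RNA of a whole culture, less RNA per cell and fewer cells with the RNA cannot be told apart.

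SREBF1 had a second probe on the array, and the pair did not move together. The probe used above lies at 17715419 to 17715478 on chromosome 17 (hg19, minus strand), and the other at 17715304 to 17715363, with the same transcript named for both. The second probe was dim, with a raw Cy3 intensity of 46.9 to 52.3 against 1821 to 4366 for the first, and its log2 ratio lay between -0.05 and 0.25 on the 8 arrays. With the median over both probes, the log2 ratio was -1.82 after miR-30c-2-3p, -0.74 after miR-143-5p and -0.54 after miR-30c-5p. The calls for miR-143-5p and miR-30c-5p thus did not hold under this setting, which weighs the dim probe like the bright one. After median centring the value for miR-30c-5p was -0.51, also inside the rule. For miR-143-5p the other alternatives, from -1.96 to -1.25, were past the rule.

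SREBF2, the factor of the sterol branch, stayed within the 2-fold rule on all arrays. Its log2 ratio was 0.32 after miR-139-5p, 0.04 after miR-139-3p, -0.02 after miR-143-5p and 0.43 on the array under the miR-143-3p label. In PANC-1 it was 0.09 after miR-30c-5p, 0.20 after miR-30c-2-3p, -0.04 after miR-30a-5p and -0.17 after miR-30a-3p. The array with the lowest SREBF1 ratio therefore had an SREBF2 ratio above 0.

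SCAP, the escort of both factors, was at -0.13 after miR-139-5p, -0.44 after miR-139-3p, -0.27 after miR-143-5p and 0.11 on the array under the miR-143-3p label. In PANC-1 it lay between 0.02 after miR-30a-5p and 0.22 after miR-30a-3p, with 0.07 for miR-30c-5p and 0.12 for miR-30c-2-3p. No SCAP ratio was 2-fold from mock.

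INSIG1, which retains SCAP in the endoplasmic reticulum and is itself a target of the factors, was 2.15-fold higher after miR-139-5p, at 1.10. It was at 0.68 after miR-30c-5p, 0.57 after miR-30a-5p and 0.26 on the array under the miR-143-3p label, and below 0 at -0.68 after miR-143-5p, -0.53 after miR-30a-3p, -0.40 after miR-139-3p and -0.32 after miR-30c-2-3p. The 2 miR-30 strands of 1 seed were again on the same side of 0, here above it. Against the mean of the 4 mock channels, among which INSIG1 varied with an SD of 0.79, the value after miR-139-5p was 1.75, that after miR-139-3p turned from -0.40 to 0.32, and that on the array under the miR-143-3p label turned from 0.26 to -0.35.

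**Figure D2:**
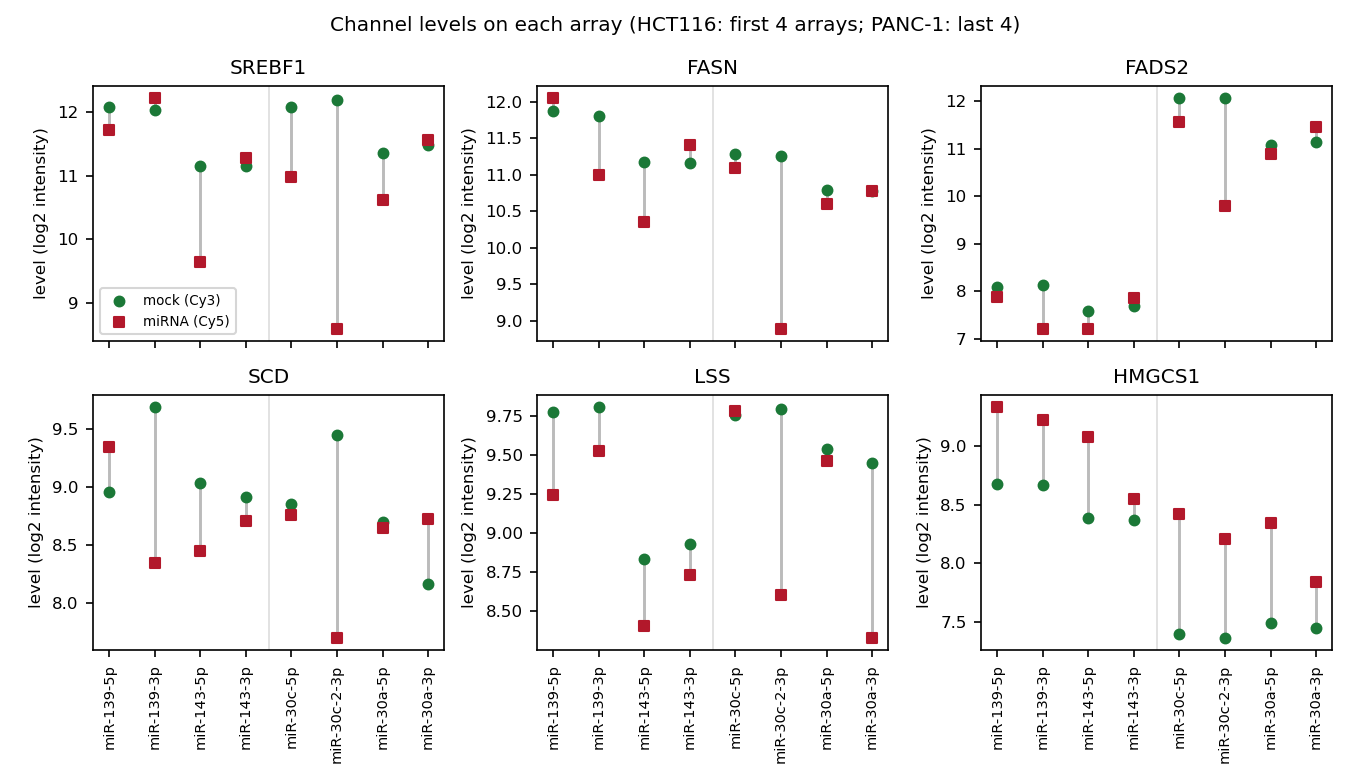
Normalised level (log2 intensity) of 6 genes in the mock channel (circles) and in the miRNA channel (squares) of each of the 8 arrays, joined by a line for each array, with HCT116 on the left of the vertical line and PANC-1 on the right. The largest gap, that of SREBF1 after miR-30c-2-3p, runs from 12.19 in mock to 8.59 after transfection.

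The fatty acid enzymes had the lowest median of the steps after miR-30c-2-3p. All 8 of them were below 0 there, with a median of -0.69 against 0.01 over all detected genes, and 3 passed the 2-fold rule. All 8 were below 0 under each of the 6 alternative settings as well. FASN, the synthase that builds palmitate, was 5.17-fold lower, at -2.37, FADS2, the delta-6 desaturase of polyunsaturated fatty acids, 4.90-fold lower, at -2.29, and SCD, the stearoyl-CoA desaturase that makes oleate, 3.38-fold lower, at -1.75. ACACA, which makes malonyl-CoA, was at -0.72, FADS1 at -0.66, ACLY, which supplies acetyl-CoA from citrate, at -0.62, and ACSS2, which makes it from acetate, at -0.56. ELOVL6, the elongase of palmitate, was at -0.11, with a dim mock signal (raw Cy3 intensity 32.0).

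FASN was at -0.81 after miR-139-3p and -0.82 after miR-143-5p, at -0.20 after miR-30c-5p and -0.19 after miR-30a-5p, and above 0 at 0.25 on the array under the miR-143-3p label, 0.19 after miR-139-5p and 0.01 after miR-30a-3p. Its mock level lay between 10.77 and 11.29 on the PANC-1 arrays, and its level after miR-30c-2-3p was 8.88. The lowest values of FASN and SREBF1 fell on the same array.

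FADS2 was at -0.91 after miR-139-3p, -0.49 after miR-30c-5p, -0.37 after miR-143-5p, -0.21 after miR-139-5p and -0.19 after miR-30a-5p, and above 0 at 0.31 after miR-30a-3p and 0.17 on the array under the miR-143-3p label. In PANC-1 its mock level was 11.08 to 12.07 and its level after miR-30c-2-3p was 9.78. In HCT116 the gene was dim by comparison, with mock levels of 7.57 to 8.12.

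SCD was 2.55-fold lower after miR-139-3p, at -1.35. It was at -0.59 after miR-143-5p, -0.21 on the array under the miR-143-3p label, -0.09 after miR-30c-5p and -0.05 after miR-30a-5p, and above 0 at 0.39 after miR-139-5p and 0.56 after miR-30a-3p. Its mock level differed between arrays whose mock channels otherwise were nearly alike: 8.95 and 9.69 on the miR-139-5p and miR-139-3p arrays, 8.85 and 9.45 on the miR-30c-5p and miR-30c-2-3p arrays, and 8.70 and 8.16 on the miR-30a-5p and miR-30a-3p arrays. In each of these pairs, the array with the higher mock level was the one with the lower ratio, and the part of the mock channel in the ratio was not tested. Against the mean of the line's 4 mock channels, SCD was at -0.81 after miR-139-3p, inside the 2-fold rule, and at -1.09 after miR-30c-2-3p.

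With miR-139-3p all 8 fatty acid enzymes were below 0 too, with a median of -0.47 against 0.01 over all detected genes. This count fell to 6 of 8 against the mean of the 4 mock channels and was 8 of 8 under the other alternatives. SREBF1 was not below 0 on that array. With miR-143-5p, where SREBF1 was at -1.50, 7 of 8 were below 0 with a median of -0.40, and ACSS2, at 0.43, was the exception. With miR-30a-3p all 8 were above 0, with a median of 0.31. But 1 of 8 was below 0 without background correction and by the scanner log ratio, and 4 of 8 against the mean of the 4 mock channels. Dimmer second probes of ELOVL6 and ACACA differed in sign from those used. For ELOVL6 it was 0.40 against -0.56 after miR-139-3p. For ACACA it was 0.24 against -0.44 after miR-143-5p and -0.10 against 0.62 after miR-30a-3p. With the median over probes the counts on these 3 arrays were the same.

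**Figure D3:**
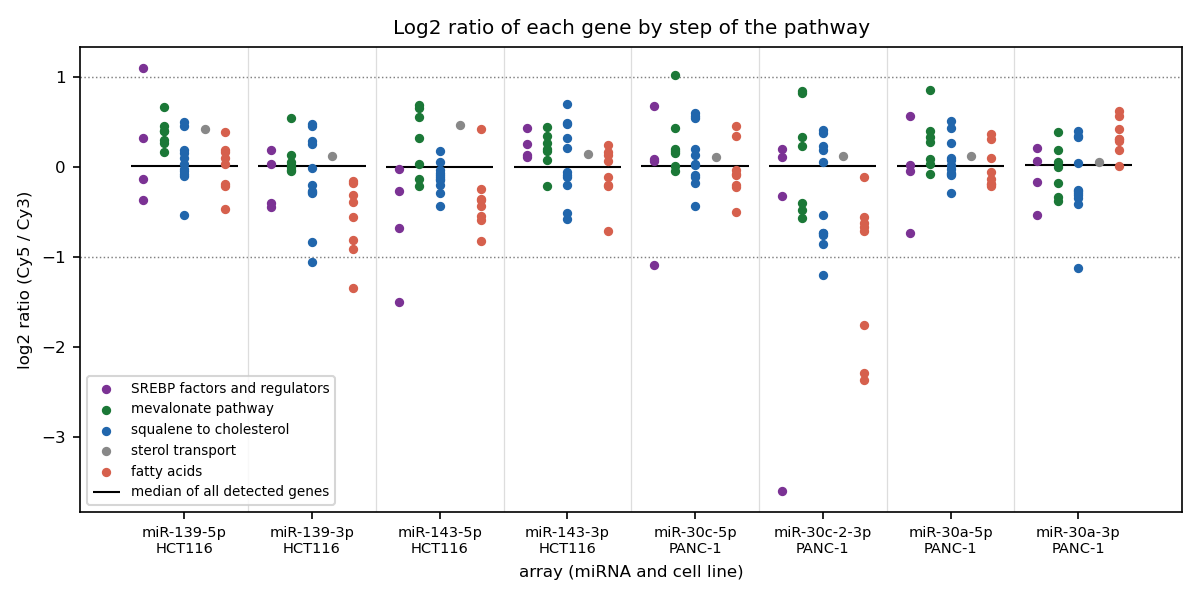
Log2 ratio of Cy5 (miRNA) over Cy3 (mock) of each of the 31 genes on the 8 arrays, coloured by step of the pathway, with the median of all detected genes as a black line and dotted lines at 1 and -1. With miR-30c-2-3p the 8 fatty acid enzymes lie between -2.37 and -0.11 while the 7 mevalonate enzymes lie on both sides of 0.

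The mevalonate enzymes, which turn acetyl-CoA into farnesyl diphosphate, were divided after miR-30c-2-3p: 3 of 7 were below 0 and 4 above, with a median of 0.23. HMGCS1, which makes HMG-CoA, was above 0 on all 8 arrays and under every alternative setting. It was 2.03-fold higher after miR-30c-5p, at 1.02, the single case past the 2-fold rule, and at 0.996 against the mean of the 4 mock channels. It was at 0.86 after miR-30a-5p, 0.84 after miR-30c-2-3p, 0.69 after miR-143-5p, 0.66 after miR-139-5p, 0.55 after miR-139-3p, 0.39 after miR-30a-3p and 0.18 on the array under the miR-143-3p label.

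PMVK, the phosphomevalonate kinase, was at 0.83 after miR-30c-2-3p. On the same array FDPS, the farnesyl diphosphate synthase, was at -0.57, ACAT2, the cytosolic thiolase, at -0.48 and MVD, the mevalonate diphosphate decarboxylase, at -0.40. With miR-139-5p all 7 mevalonate enzymes were above 0, between 0.17 and 0.66, as they were under every alternative setting. INSIG1 was the single member past the 2-fold rule on that array.

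Of the 11 enzymes from squalene to cholesterol, 6 were below 0 and 5 above after miR-30c-2-3p. LSS, which closes the sterol ring system as lanosterol, was 2.30-fold lower there, at -1.20, and 2.18-fold lower after miR-30a-3p, at -1.12. It was at -0.53 after miR-139-5p, -0.43 after miR-143-5p, -0.28 after miR-139-3p, -0.20 on the array under the miR-143-3p label, -0.08 after miR-30a-5p and 0.02 after miR-30c-5p. The dim second LSS probe, named for another transcript, was at -0.10 after miR-30c-2-3p and 0.24 after miR-30a-3p. With the median over both probes LSS was at -0.65 and -0.44 on these arrays, and after median centring at -0.99 and -0.48, so neither call held under these 2 settings.

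SQLE, the squalene epoxidase, was 2.07-fold lower after miR-139-3p, at -1.05, and at -0.72 against the mean of the 4 mock channels. It was at 0.56 after miR-30c-5p, 0.44 after miR-30a-5p, 0.21 on the array under the miR-143-3p label and 0.19 after miR-30c-2-3p, and at -0.10 after miR-139-5p, -0.15 after miR-143-5p and -0.31 after miR-30a-3p. SQLE and SREBF1 were thus on opposite sides of 0 on both arrays of the shared miR-30 seed. They also were after miR-30c-2-3p, miR-139-3p and miR-30a-3p, so this was not particular to that seed.

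The other enzymes of this stretch were within the rule. With miR-30c-2-3p, FDFT1, the squalene synthase, was at -0.85, DHCR7, which makes cholesterol from 7-dehydrocholesterol, at -0.76, MSMO1 and TM7SF2 at -0.74, and CYP51A1, the lanosterol demethylase, at -0.53. On the other side were NSDHL at 0.41, HSD17B7 at 0.37, SC5D at 0.24 and EBP at 0.06. By the scanner log ratio MSMO1, TM7SF2 and ACSS2 passed the rule as well on this array, for 8 lower genes. On the HCT116 arrays more of all detected genes also passed the rule by that ratio. The share of all genes past it on the miR-30c-2-3p array is not given here. The 8 genes are therefore not read as a trait of the members. STARD4, a cytosolic sterol carrier, was above 0 on all 8 arrays, between 0.06 and 0.47, and on 7 against the mean of the 4 mock channels. In PANC-1 mock it was dim, with a raw Cy3 intensity of 37.2 to 47.4, as was SC5D, at 36.7 to 40.8.

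Over all 31 genes, the median log2 ratio was -0.48 after miR-30c-2-3p and between -0.16 and 0.17 on the other 7 arrays, against 0.00 to 0.02 over all detected genes. With miR-30c-2-3p 19 members were below 0 and 12 above. When the mean of the line's 4 mock channels was the reference, 47 of the 248 ratios of the members changed sign, 0 of them after miR-30c-2-3p and 12 on the array under the miR-143-3p label, and none was past the 2-fold rule. SREBF1 turned from -0.36 to 0.11 after miR-139-5p, from 0.07 to -0.22 after miR-30a-3p, and from 0.13 to -0.32 on the array under the miR-143-3p label.

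Genes next to this pathway were read from 4 lists of lipid genes. Of 7 detected genes for SREBP processing and degradation, none passed the 2-fold rule on any array, and RNF139, a ubiquitin ligase of the endoplasmic reticulum, came nearest, just under it after miR-30c-2-3p. With miR-30c-2-3p, LPCAT3, which puts polyunsaturated fatty acids into phospholipids, was at -2.30, MID1IP1, an activator of acetyl-CoA carboxylase, at -1.64, ACADVL, an enzyme of fatty acid oxidation, at -1.54, NR1H3, the oxysterol receptor LXR alpha, at -1.26 and GPAM, the first enzyme of glycerolipid synthesis, at 1.16. That made 4 lower (background 4.14%) and 1 higher (background 1.71%) of the 44 detected genes on the 4 lists. The lists had 1 lower (background 2.82%) and 2 higher (background 2.11%) of 45 after miR-139-3p. Of 45 genes after miR-30a-3p, 3 were lower (background 1.10%) and 0 higher (background 0.372%). After miR-143-5p 0 were lower and 1 higher of 45 (background 0.356% higher). There were also 0 lower and 1 higher of 44 after miR-30a-5p (background 0.306% higher). The same counts of 44 were found after miR-30c-5p (background 0.747% higher). On the other 2 arrays no gene of the lists passed the rule.

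With miR-139-3p, LPCAT3 was at -1.37 and SLC25A20, the mitochondrial carnitine carrier, at 1.52. With miR-30a-3p, LBR, which also reduces the sterol ring, was at -1.79 and ACSL4, which activates arachidonate, at -1.04. ANGPTL4, a lipase inhibitor and target of PPAR factors, was at 2.36 after miR-30c-5p and 2.02 after miR-30a-5p, at 1.29 after miR-143-5p and at -1.67 after miR-30a-3p. The remaining genes of these lists that are reported here were within the rule on every array.

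The mock channels of 1 line carry the same label, and they differed by precursor for these genes. The 2 mock channels of 1 precursor had 4 to 6 genes at least 2-fold apart in HCT116 and 0 to 13 in PANC-1, and 226 to 229 and 41 to 46 between precursors. In HCT116, 29 of the 31 members were higher in the mock of the miR-139 arrays than in that of the miR-143 arrays, with a median difference of 0.52 on the log2 scale. Of all genes detected in mock, 51.8% were higher there, with a median difference of 0.01. INSIG1 differed most, 9.63 against 8.26, a difference of 1.37, and was the single member at least 2-fold apart (background 0.313%). SREBF1 and LSS followed at 0.91, ACAT2 at 0.90 and FADS1 at 0.88, while PMVK, at -0.04, and TM7SF2, at -0.28, were the exceptions. By step, 4 of 4 regulators, 6 of 7 mevalonate enzymes, 10 of 11 enzymes from squalene to cholesterol and 8 of 8 fatty acid enzymes were higher.

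In PANC-1, 25 of 31 members were higher in the mock of the miR-30c arrays than in that of the miR-30a arrays, with a median difference of 0.18, against 57.5% of all genes and a median of 0.02. FADS2 differed most, by 0.96, then SCD by 0.72, FADS1 and SREBF1 by 0.71 and FASN by 0.49. No member was 2-fold apart (background 0.0689% higher and 0.143% lower). There was 1 mock pair per precursor, so these differences carry no test, and their part in the ratios was not tested. They are as large as many of the ratios above: the SREBF1 ratio after miR-30a-5p, -0.74, is about the size of the gap between the PANC-1 mocks. The arrays of 1 precursor may share 1 mock RNA, so their ratios are not independent.

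**Figure D4:**
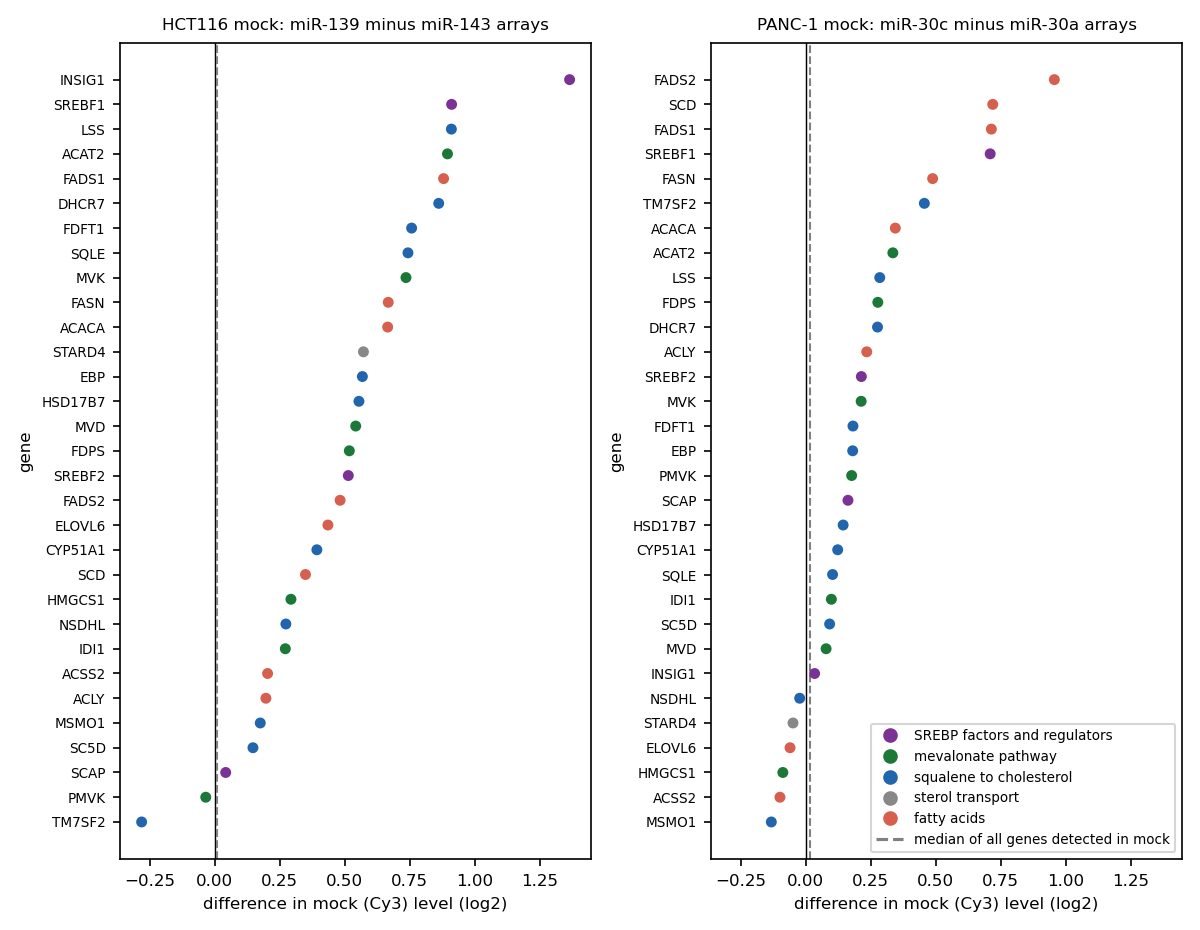
Difference in mock (Cy3) level between the arrays of 1 precursor and those of the other, on the log2 scale, for each of the 31 genes in HCT116 (left) and PANC-1 (right), coloured by step of the pathway, with the median of all genes detected in mock as a dashed line. In HCT116 29 genes lie to the right of 0, led by INSIG1 at 1.37, and in PANC-1 25 do, led by FADS2 at 0.96.

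The mock levels of the lines were then compared, a contrast that did not enter the choice of the genes. The 2 mock channels of 1 precursor were averaged, which left 2 replicates per line, and the 22386 genes detected in mock were tested. FADS2 was 13.2-fold higher in PANC-1: its level was 12.06 and 11.11 there and 8.11 and 7.63 in HCT116, with no overlap (difference for HCT116 minus PANC-1 -3.72 ± 0.40 SE, adjusted p = 0.00789, limma). PMVK, at a difference of -0.55, and NSDHL, a sterol dehydrogenase, at -0.88, were also higher in PANC-1. ELOVL6 was higher in HCT116 by 1.50, ACLY by 1.26, HMGCS1 by 1.11, ACSS2 by 0.66 and SCAP by 0.54. ELOVL6 was dim in PANC-1, with a raw Cy3 intensity of 28.3 to 34.1, so the size of its difference is uncertain.

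That made 5 members higher in HCT116 (background 20.3%) and 3 higher in PANC-1 (background 18.2%), of 31 tested, with 23 not called. Among the latter, SREBF1 differed by -0.18 ± 0.43 (SE) and SREBF2 by 0.74 ± 0.21 (SE), and the spread between the mocks of a line was wide for SREBF1, with an SD of 0.64 in HCT116 and 0.50 in PANC-1. The FADS2 call held in the 4 settings that kept both mocks of each line as replicates, with an adjusted p of at most 0.0233 (limma). It also held in the 1 that took single channels, which may count 1 RNA as 2 replicates. The other 4 settings left out a mock, so 1 line had a single replicate without a spread of its own, and only differences are given. Over all 9 settings the FADS2 difference stayed between -4.20 and -3.24. The median difference of the 31 members was 0.20 with all mocks. It was 0.01 without the miR-139 mock, 0.34 without the miR-143 mock, 0.18 without the miR-30c mock and 0.03 without the miR-30a mock. Over all genes the median difference in these fits was 0.00 to 0.02. The other called members also rest on 2 replicates per line. Over the 9 settings the differences were 0.46 to 0.62 for SCAP, 0.96 to 1.26 for HMGCS1 and 1.15 to 1.38 for ACLY. They were 0.55 to 0.81 for ACSS2, 1.28 to 2.24 for ELOVL6, -0.63 to -0.46 for PMVK and -1.01 to -0.74 for NSDHL. Whether those calls hold without 1 of the mocks cannot be judged, because a line then has a single replicate. Nothing in the labels says that the mocks came from separate cultures, so the p-values measure the spread between these samples, which may be technical.

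**Figure D5:**
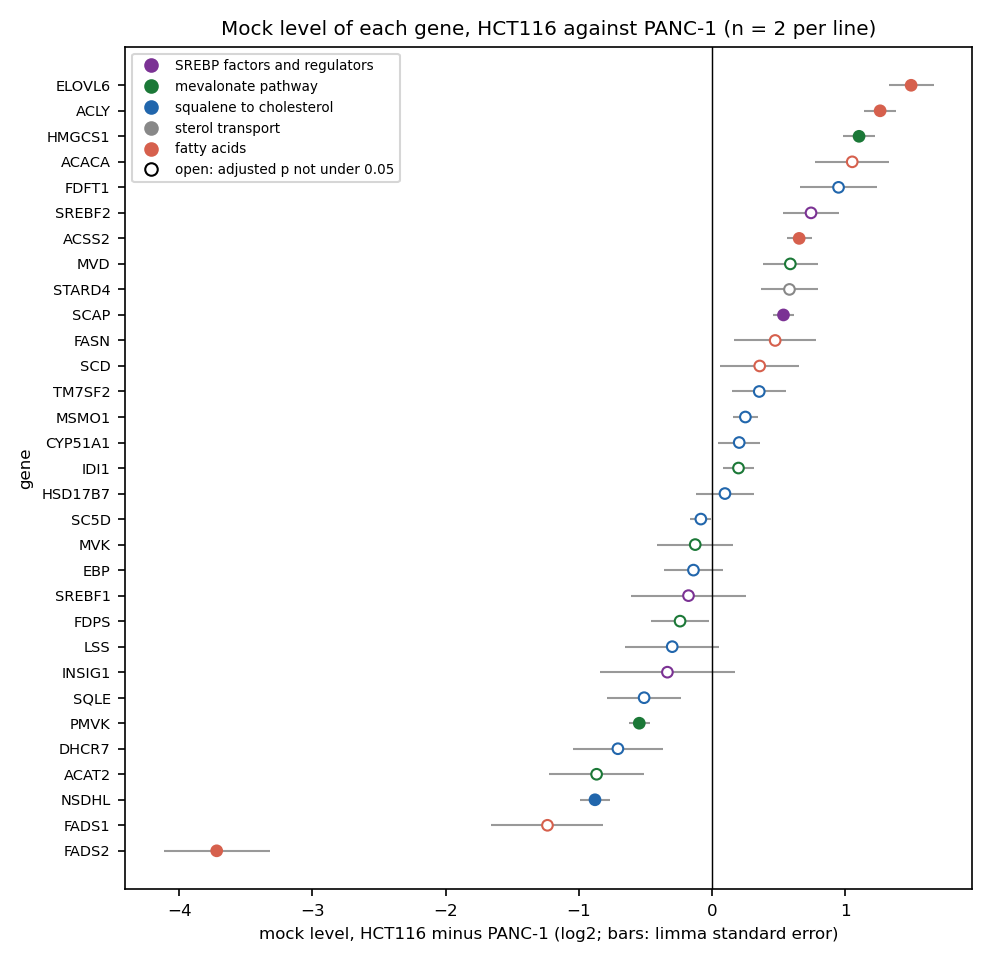
Mock level of each of the 31 genes in HCT116 minus PANC-1 on the log2 scale, with the limma standard error as a bar (n = 2 per line), coloured by step of the pathway and filled where the adjusted p is under 0.05. FADS2, at -3.72, lies apart from the other genes, which are between -1.24 and 1.50.

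The promoters of these genes were read for letters that they share, as a description. RefSeq windows of 300 bases around the start of transcription on GRCh38.p14 were given for 27 of the 31 genes, and not for ACAT2, FDFT1, SQLE and FASN. Both strands were searched for CCAAT, the box bound by the factor NF-Y, which acts beside SREBPs, and for TCACNCCAC, the letters of a classical sterol regulatory element. Of these genes, 8 had more than 1 window, and a gene was counted when any window held the letters. A window with CCAAT was found for 21 of 27 members, 77.8%, against 39.7% of 27305 genes. TCACNCCAC was found for 1 of 27, 3.70%, against 1.39% of all genes. The SREBF1 window held neither. The 27305 genes were not limited to those detected on these arrays, while all members were detected, so the shares come from unlike sets. A match describes letters only and is no evidence of binding. Whether the letters bear on the ratios or the mock levels was not tested. The windows of SREBF2, which held both motifs, of INSIG1, the gene that differed most between HCT116 mocks, and of HMGCS1 and SCD, with 2 boxes each, are printed 5′ to 3′ with the matches in capitals. HMGCS1 had another window, chr5:43313132-43313431, which overlaps the one shown and held neither motif.
SREBF2, chr22:41832855-41833154 (+ strand): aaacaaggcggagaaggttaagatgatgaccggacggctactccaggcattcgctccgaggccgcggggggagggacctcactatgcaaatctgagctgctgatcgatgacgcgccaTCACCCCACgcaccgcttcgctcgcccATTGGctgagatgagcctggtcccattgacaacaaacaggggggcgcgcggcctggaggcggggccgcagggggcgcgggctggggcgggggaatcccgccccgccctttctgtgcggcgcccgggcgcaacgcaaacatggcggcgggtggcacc
INSIG1, chr7:155297628-155297927 (+ strand): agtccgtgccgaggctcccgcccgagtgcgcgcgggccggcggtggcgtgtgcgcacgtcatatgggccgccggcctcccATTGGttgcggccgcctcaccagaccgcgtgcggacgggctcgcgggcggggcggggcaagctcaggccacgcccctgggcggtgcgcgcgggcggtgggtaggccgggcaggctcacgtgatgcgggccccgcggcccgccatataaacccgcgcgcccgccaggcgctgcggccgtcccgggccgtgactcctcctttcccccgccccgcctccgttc
HMGCS1, chr5:43313363-43313662 (- strand): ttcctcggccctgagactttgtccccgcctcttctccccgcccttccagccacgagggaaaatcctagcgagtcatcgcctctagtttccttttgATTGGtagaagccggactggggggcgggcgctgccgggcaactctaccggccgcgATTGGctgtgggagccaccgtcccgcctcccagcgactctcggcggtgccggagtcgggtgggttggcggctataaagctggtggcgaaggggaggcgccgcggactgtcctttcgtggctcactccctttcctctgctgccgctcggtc
SCD, chr10:100346983-100347282 (+ strand): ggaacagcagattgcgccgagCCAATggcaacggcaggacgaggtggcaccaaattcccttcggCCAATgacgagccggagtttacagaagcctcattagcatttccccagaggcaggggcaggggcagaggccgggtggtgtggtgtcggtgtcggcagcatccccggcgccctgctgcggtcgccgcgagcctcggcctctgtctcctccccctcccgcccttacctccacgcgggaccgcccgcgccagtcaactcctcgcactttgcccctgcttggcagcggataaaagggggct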

How the data were processed

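The 8 arrays measured RNA of 1 miRNA-transfected culture (Cy5) against mock cells (Cy3). Per the file headers, Agilent Feature Extraction 11.5.1.1 gave the mean pixel intensity and median background intensity of each spot, on a design annotated on hg19. The deposited log10 ratio of processed Cy5 over Cy3 is the same in the scanner output and in the processed values of the authors, to within 0 over 62976 spots. It was used, turned to log2, as an alternative. No column of their file was left without a sample (0).

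Intensities were corrected with normexp (offset 50) and normalised by loess within arrays in R 4.3.3 with limma 3.58.1 and data.table (version 1.17.8). Control spots and outlier spots were left out, and spots of a probe averaged. Channel levels were taken after Aquantile normalisation. The probe with the highest mean signal stood for a gene, which was detected when well above background in at least 1 channel. With 1 array per miRNA a size rule, a log2 ratio of 1 or more from 0, replaced a test. Mock levels of the lines were compared by lmFit and eBayes, two-sided, with Benjamini-Hochberg adjustment over all genes detected in Cy3 and a threshold of 0.05. The scripts were tested on simulated data. Tables and plots used Python 3.11.15, numpy 2.4.6, pandas 2.3.3 and matplotlib 3.10.9.

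The members and the 4 neighbouring lists were chosen with earlier results of these data known. Every array's value was given for SREBF1, SREBF2, SCAP, INSIG1 and each member at least 2-fold from mock on an array, and genes of the other lists were named when 2-fold from mock, except 1 gene that is not reported here. HACD3 and SPRING1 found no matching name on the array, the latter being listed by its older name C12orf49. Alternatives were no background correction, the scanner log ratio, median centring, the median over probes, no filter on dim probes, and the mean of the line's 4 mock channels as reference. For mock levels they were single channels, quantile normalisation of Cy3, no background correction, no filter, and leaving out each replicate.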

Additional observations from a re-analysis of the deposited data

Results flagged for a closer look

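The 4 mock channels of a line were looked at for each of the 31 genes, 62 groups in all, for a single array far from the other 3, and 2 groups had one. For 4 independent values chance gives such a group about 1 time in 20. The mock channels of 1 precursor may share 1 RNA, so that rate need not hold here and the count is not set against it. SCD in HCT116 had a mock level of 9.69 on the miR-139-3p array and of 8.91 to 9.03 on the other 3, and the gap of the miR-139-3p array was 0.844 of the whole range. The SCD ratio after miR-139-3p, -1.35, was formed with this mock channel. MVD in PANC-1 had a mock level of 7.44 on the miR-30a-3p array and of 7.59 to 7.62 on the other 3, and the gap of the miR-30a-3p array was 0.864 of the range.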

How the results depend on the processing

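Without background correction, no lower or higher count moved by over 1.5 times. By the scanner log ratio, 8 genes were lower and 1 higher after miR-30c-2-3p, and 1 was lower and 1 higher both after miR-30a-5p and on the array under the miR-143-3p label. On the array under the miR-143-3p label, 1002 of all 20107 detected genes were lower and 869 higher by this ratio. By the main processing these counts were 186 and 104. After median centring, 0 genes were lower and 4 higher after miR-30c-5p, 0 lower and 6 higher after miR-30a-3p, and 1 higher after miR-30c-2-3p and after miR-30a-5p. With the median over probes, 0 genes were lower after miR-143-5p, miR-30c-5p and miR-30a-3p. Of all genes, 150 of 20566 were lower after miR-143-5p in this setting, against 205 of 20498 by the main processing. Against the mean of the 4 mock channels, 0 were lower after miR-139-3p, 3 after miR-143-5p and 1 after miR-30a-5p, and after miR-30c-5p 0 were lower and 0 higher. Of all genes, 592 of 20708 were lower after miR-139-3p and 222 of 20498 after miR-143-5p against this reference. The counts over all genes also moved with the setting, and those of the PANC-1 arrays are not given here. The changes in the member counts are therefore not read as a trait of these genes.

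The median of the 31 genes became 0.51 after miR-30c-5p, -0.24 after miR-30c-2-3p, 0.34 after miR-30a-5p and 0.68 after miR-30a-3p after median centring, where the median of all genes was 0.21, 0.08, 0.15 and 0.30. Against the mean of the 4 mock channels it was -0.30 after miR-30c-2-3p, -0.084 after miR-30a-5p and -0.091 after miR-30a-3p. In HCT116 no median moved by more than 0.41, the SD of the members' median mock level over the 4 channels, against 0.11 in PANC-1, but 3 changed sign: against the mean of the 4 mock channels the median turned from -0.16 to 0.19 after miR-139-3p and from 0.14 to -0.16 on the array under the miR-143-3p label, and after median centring from -0.14 to 0.051 after miR-143-5p. With miR-30c-2-3p the median was below 0 in all 7 settings.

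Called log2 ratios and those of SREBF1 moved by less than the SD of the gene's 4 mock levels in 85 of the alternative values and by more in 17, and no called ratio changed sign, while those of SREBF1 on 3 arrays did against the mean of the 4 mock channels. FASN after miR-30c-2-3p ranged from -2.52 to -2.12, FADS2 from -2.40 to -1.81, SCD from -1.99 to -1.09 and SREBF1 from -3.80 to -1.82. In the comparison of mock levels, 11 members were higher in HCT116 and 7 in PANC-1 with single channels. Without background correction 8 were higher in HCT116. Of all genes, 7459 of 22370 were higher in HCT116 and 6610 in PANC-1 with single channels. Without background correction 5105 of all 22386 genes were higher in HCT116. By the main processing 4544 of all 22386 genes were higher in HCT116 and 4074 in PANC-1. Leaving out 1 replicate gave 0 to 12 members higher in HCT116 and 1 to 8 in PANC-1. A line then has a single replicate, so those counts are not read further. Counts over all genes also moved in these settings, so the changes in the member counts are not read as a trait of the members. The causes of these changes were not tested. No paired analysis was possible because each miRNA was on 1 array and the precursors differ between the lines. The deposited log ratio is the scanner log ratio and gave no further setting.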
